A study of Mus musculus with 18 samples.

Results

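Transcripts of 5 genes of the mouse Ly6 family, Ly6a, Ly6c1, Ly6c2, Ly6e and Ly6i, were measured by RNA sequencing in bone marrow-derived macrophages (BMDMs) grown above renal tubular epithelial cells (TECs). The 5 genes were selected by symbol from the 25926 genes of the expression table, and all 5 were found. No measured value entered the selection rule, but earlier results of these data were known when the genes were proposed. The BMDMs came from C57BL/6J mice, had been differentiated for 7 days with M-CSF at 50 ng/mL, and were cultured on the insert of a Transwell system (pore size 0.4 μm). The NC group had crystal-free TECs and PBS-treated BMDMs. The COM group had PBS-treated BMDMs too, but its TECs had been given calcium oxalate monohydrate (COM), a common mineral of kidney stones, at 100 μg/mL for 24 h. In the COM+Met group the TECs were exposed to the crystals in the same way and the BMDMs received 5 mM Met for 24 h, an abbreviation that the labels do not spell out. Each group held 6 samples, and all groups shared the mouse strain, the M-CSF and the Transwell. Nothing in the labels tells whether these were separate cultures or animals, and the p-values therefore cover only sample-to-sample spread, which may be technical.

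Ly6 proteins are small, cysteine-rich proteins held on the outer face of the cell membrane by a glycosylphosphatidylinositol (GPI) anchor. Ly6c1 and Ly6c2 encode the Ly6C antigen, by which mouse monocytes are commonly sorted, since it is abundant on inflammatory monocytes and is lost from many tissue macrophages. Ly6a encodes Sca-1, a marker of haematopoietic stem cells that interferons also induce in other leukocytes. Ly6e is an interferon-induced gene whose product affects the entry of several viruses, and Ly6i is a relative of Ly6a that is transcribed in myeloid cells.

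The values were FPKM, fragments scaled to the length of the gene and to the total of the sample, which allows levels of different genes to be set side by side. Differences between groups were tested with limma on log2(FPKM + 1), a scale that understates changes of low genes, over all genes that averaged at least 1 FPKM in the 12 samples of a comparison. A gene was called at a Benjamini-Hochberg adjusted p below 0.05 and a difference of at least 2-fold on that scale. Pearson correlations between samples over 10751 genes were 0.938 to 0.995 among NC samples, 0.888 to 0.995 among COM samples and 0.989 to 0.995 among COM+Met samples. The samples NC-5 and NC-6 stood apart from the other NC samples (0.938 to 0.962), as did COM-1, COM-2 and COM-3 from COM-4, COM-5 and COM-6 (0.888 to 0.951), and fold changes and ratios that these samples moved most are given with and without them. All 14 macrophage markers listed reached a mean of 1 FPKM in NC, led by Lyz2 and Cd68.

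The 5 genes lie together on chromosome 15, within 156920 bp of the GRCm38 assembly (GENCODE M21 annotation). Ly6e lies on the plus strand at chr15:74955051-74959905. The other 4 lie on the minus strand, Ly6i at chr15:74979534-74983430, Ly6a at chr15:74994877-74998031, Ly6c1 at chr15:75044018-75048830 and Ly6c2 at chr15:75108158-75111970. Their Ensembl identifiers in the table are ENSMUSG00000022587 (Ly6e), ENSMUSG00000022586 (Ly6i), ENSMUSG00000075602 (Ly6a), ENSMUSG00000079018 (Ly6c1) and ENSMUSG00000022584 (Ly6c2). No other protein-coding gene is annotated inside that span, which holds 6 other annotated genes, all of them pseudogenes, long non-coding RNAs or an unclassified transcript. The 5 genes stood out from their neighbours in level. Since they were proposed with earlier results of these data known, this gap may follow from the choice of the 5 genes. Of 16 other protein-coding genes annotated around them, from Jrk on one side to Ly6g on the other, 14 were below 1 FPKM in every sample and 7 of these were listed at 0 in every sample, among them the family members Slurp1, Lypd2 and Gml. Ly6g, which encodes the neutrophil antigen Ly6G and is the next protein-coding gene after Ly6c2, did not exceed 0.257 FPKM in any sample.

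**Figure D1:**
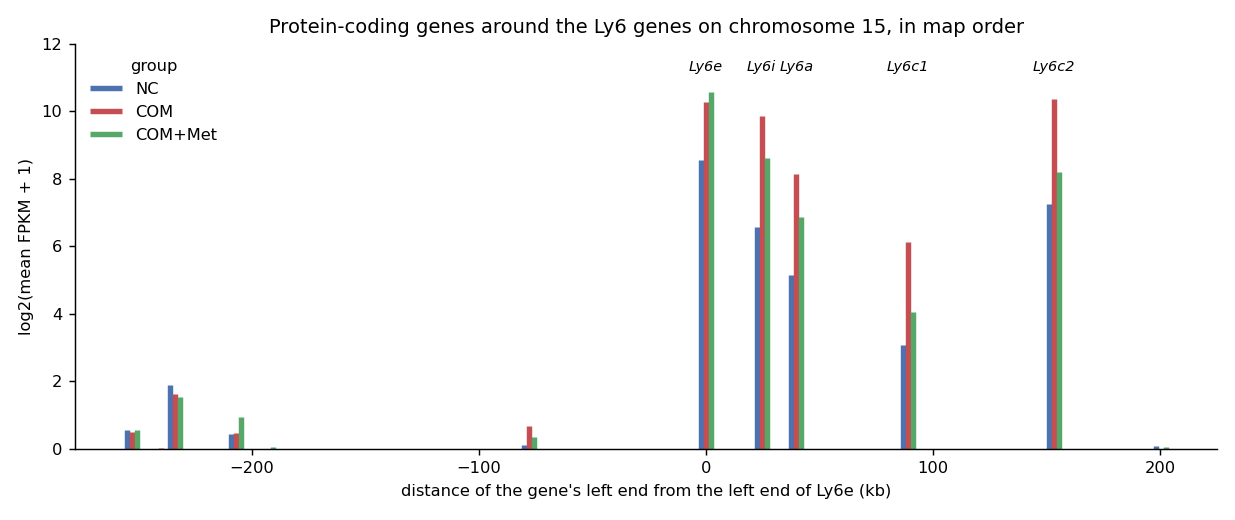
Mean level of the protein-coding genes around the Ly6 genes on chromosome 15, as log2(mean FPKM + 1) in NC, COM and COM+Met (6 samples each), by distance in kb from the left end of Ly6e (the 3 bars of a gene are set 2.2 kb apart for legibility). The 5 Ly6 genes form the only tall bars, and every one of them is taller in COM than in NC, while Them6, the tallest of the neighbours, did not exceed 3.89 FPKM.

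Ly6c1 and Ly6c2 are near copies, and the coding sequences are shown because they set how far the levels of these 2 genes can be told apart. Their coding sequences of 393 bases differed at 9 positions, an identity of 97.7%. The first 300 bases, taken from the annotated transcripts, hold 7 of the differences, which are in capitals:

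Ly6c1: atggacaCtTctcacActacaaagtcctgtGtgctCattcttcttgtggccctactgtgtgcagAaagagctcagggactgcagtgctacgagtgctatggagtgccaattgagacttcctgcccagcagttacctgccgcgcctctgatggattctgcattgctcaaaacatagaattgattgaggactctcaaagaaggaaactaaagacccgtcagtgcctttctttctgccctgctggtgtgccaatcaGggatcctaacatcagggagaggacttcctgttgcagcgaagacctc
Ly6c2: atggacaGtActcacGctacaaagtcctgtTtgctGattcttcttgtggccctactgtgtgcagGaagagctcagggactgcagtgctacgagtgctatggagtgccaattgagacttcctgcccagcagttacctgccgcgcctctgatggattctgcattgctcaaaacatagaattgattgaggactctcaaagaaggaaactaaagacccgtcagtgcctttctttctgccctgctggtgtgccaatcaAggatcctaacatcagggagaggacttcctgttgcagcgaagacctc

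Between bases 66 and 253 the 2 sequences are identical over 188 bases. Of all windows of 50 bases in the main Ly6c1 transcript, 36.7% also occurred in a transcript of another gene, most of them in Ly6c2, and of those in Ly6c2, 33.0% did. With windows of 100 bases the shares were 15.3% and 15.8%. Reads from such windows cannot be assigned to one of the copies, and how they were assigned is not given in the sources used here, so the separate levels of Ly6c1 and Ly6c2 are uncertain. Sharing was lower for Ly6a (8.05% of windows of 50 bases) and Ly6i (4.97%), whose coding sequences were 86.3% identical, and Ly6e shared no window. Ly6e was also the most distant in sequence, with 44.7% to 49.3% of aligned coding bases identical to those of the other 4, against 81.3% to 97.7% among these 4.

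Promoter sequences from RefSeq (GRCm38.p6) were found for 2 of the 5 genes, Ly6c1 and Ly6c2, and are shown because these genes moved together. Each window holds the 250 bases before the first listed start site, read on the minus strand, at chr15:75048838-75049087 for Ly6c1 and at chr15:75111972-75112221 for Ly6c2. Capitals mark the matches described after them:

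Ly6c1 promoter: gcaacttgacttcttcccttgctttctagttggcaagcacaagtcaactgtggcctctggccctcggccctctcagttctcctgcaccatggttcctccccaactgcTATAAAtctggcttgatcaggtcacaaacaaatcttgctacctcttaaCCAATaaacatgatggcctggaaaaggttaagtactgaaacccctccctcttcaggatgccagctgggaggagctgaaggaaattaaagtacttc
Ly6c2 promoter: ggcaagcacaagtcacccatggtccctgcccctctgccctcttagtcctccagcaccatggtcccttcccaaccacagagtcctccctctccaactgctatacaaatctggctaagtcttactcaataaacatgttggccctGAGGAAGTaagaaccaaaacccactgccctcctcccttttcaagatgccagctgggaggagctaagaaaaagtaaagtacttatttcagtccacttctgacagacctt

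Both strands were searched for an interferon-stimulated response element, written as a pair of GAAA with any 2 bases between them, and for the gamma-activated sequence TTCNNNGAA. Elements of the core promoter were searched as TATAAA and as CCAAT. The last motif was GAGGAAGT, an element of the kind bound by the myeloid factor PU.1, which was added after the windows had been read. The Ly6c1 window held TATAAA at position -143 and CCAAT at position -95 from the start site, motifs present in 12.4% and 33.8% of 32851 promoter windows of the same length. The Ly6c2 window held GAGGAAGT at -108, a motif present in 2.44% of all windows. At a second listed start site this motif occurred at -127 for Ly6c1 and at -142 and -8 for Ly6c2. The 2 Ly6c2 windows overlap, and the match at -142 is the same site as that at -108 from the first start site. The letters of the interferon-stimulated response element (2.98% of all windows) and of the gamma-activated sequence (7.02%) were not in these windows.

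Against NC, all 5 genes were higher in COM, and in each of them the 6 COM samples lay above the 6 NC samples. The difference of Ly6e was the smallest, and those of the other 4 ran from 3.39 to 4.11 on the log2 scale. All 5 were called higher (limma, adjusted p from 7.8e-05 to 0.000617), where 5.99% of the 10900 genes tested were called higher and 17.7% were called in either direction. The groups of 6 did not overlap, with COM higher, in 8.6% of all genes. Exact permutation tests of the mean log2 value over 924 regroupings (two-sided) gave p = 0.00216 for each gene, the smallest that 6 against 6 samples allow.

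Ly6c2 was the most abundant of the 5 in COM by its mean. Its lowest, median and highest levels were 22.4, 189 and 245 FPKM in NC and 747, 1380 and 1809 FPKM in COM. In NC the 2 low values belonged to NC-5 (28.1 FPKM) and NC-6 (22.4 FPKM), while the others were at 145 FPKM or above, and in COM the samples COM-1, COM-2 and COM-3 lay at 1762 to 1809 FPKM and COM-4, COM-5 and COM-6 at 747 to 998 FPKM. The means were 152 ± 104 and 1321 ± 515 FPKM (SD, n = 6), a log2 fold change of 3.55 with a standard error (SE) of 0.62. Ly6c1 followed its copy at a lower level. It ranged from 1.05 to 12.5 FPKM in NC (median 8.82) and from 44.4 to 89.2 FPKM in COM (median 71.8), with the same samples low in NC. Its log2 fold change was 3.39 (SE 0.47).

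Ly6a, the Sca-1 gene, had lowest, median and highest levels of 4.90, 48.5 and 49.8 FPKM in NC and 159, 264 and 434 FPKM in COM. NC-1 to NC-4 lay within 47.7 to 49.8 FPKM, and NC-5 and NC-6 at 5.43 and 4.90 FPKM. Within COM the order was the opposite of that of Ly6c2, with COM-4, COM-5 and COM-6 (344 to 434 FPKM) above COM-1, COM-2 and COM-3 (159 to 184 FPKM). The log2 fold change of Ly6a was 3.39 (SE 0.62).

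Ly6i had lowest, median and highest levels of 6.53, 107 and 178 FPKM in NC and 801, 939 and 1023 FPKM in COM. It spread widely in NC, where NC-5 and NC-6 were again the lowest, and little in COM, where both sets of samples reached 801 FPKM or more. Its log2 fold change was 4.11 (SE 0.75), from a mean of 95.0 ± 75.3 to 934 ± 75.4 FPKM (SD, n = 6). Ly6e was the most abundant of the 5 in NC. Its levels were 211, 444 and 473 FPKM in NC and 960, 1167 and 1627 FPKM in COM, with NC-5 and NC-6 lowest and COM-4, COM-5 and COM-6 highest, and its log2 fold change was 1.77 (SE 0.25).

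Part of each difference depended on NC-5 and NC-6. Without them the log2 fold changes fell to 2.38 for Ly6a, 2.62 for Ly6c1, 2.55 for Ly6c2, 1.41 for Ly6e and 2.80 for Ly6i, and all 5 genes remained called (limma, adjusted p from 2.18e-06 to 0.000155). The median gene tested was lower in COM by 0.27 on the log2 scale, a shift that scaling by size factors removed, and relative to that median the changes were 3.66, 3.66, 3.82, 2.04 and 4.38 in the same order. Under that scaling 864 genes were called higher and 822 lower, against 653 and 1273 with the values as deposited.

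**Figure D2:**
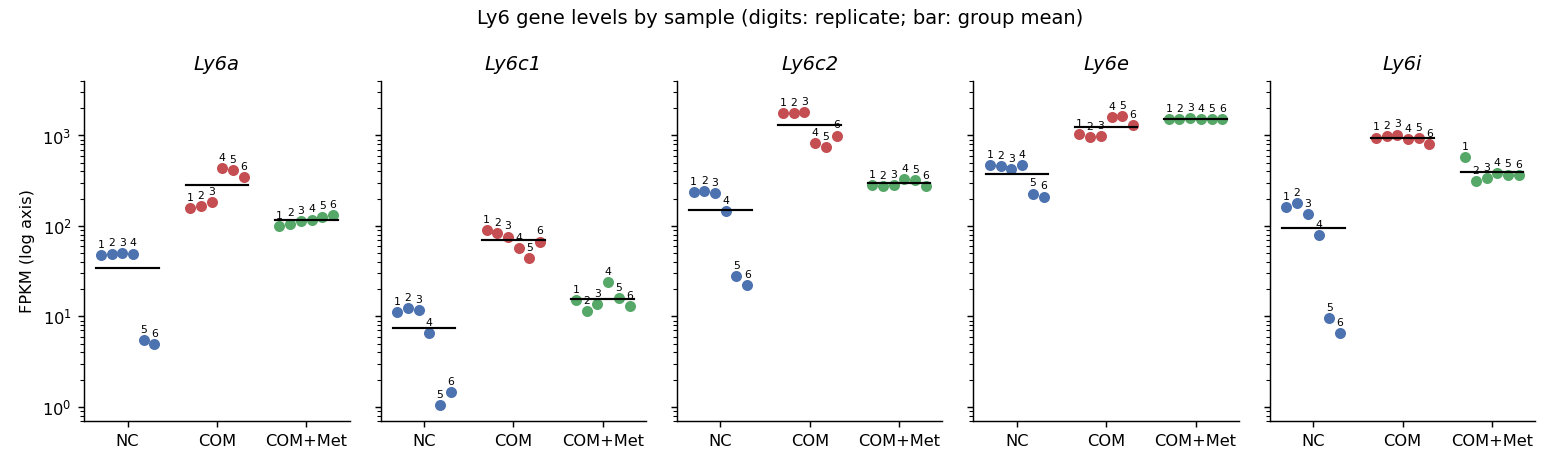
FPKM (log axis) of the 5 Ly6 genes in every sample of NC, COM and COM+Met, with replicate numbers as digits and the group mean as a bar. NC-5 and NC-6 are the lowest NC samples for all 5 genes, COM-4, COM-5 and COM-6 lie above COM-1, COM-2 and COM-3 for Ly6a and Ly6e and below them for Ly6c1 and Ly6c2, and the 6 COM+Met samples lie close together at 1510 to 1571 FPKM for Ly6e.

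Against COM, 4 of the 5 genes were lower in COM+Met and Ly6e was not. Ly6c1, Ly6c2, Ly6a and Ly6i were called lower and their groups of 6 did not overlap, where 1.61% of the 10364 genes tested were called lower, 2.22% were called in either direction, and 5.34% had groups apart with COM+Met lower. The 2 Ly6C genes showed the largest differences when all COM samples were used, whereas without COM-1, COM-2 and COM-3 that of Ly6a exceeded that of Ly6c2. This comparison and the preceding one share the COM samples, so their values are not independent.

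Ly6c2 levels in COM+Met were 275, 282 and 330 FPKM (lowest, median and highest), with a mean of 295 ± 25.3 FPKM (SD, n = 6) against 1321 ± 515 FPKM in COM. The highest COM+Met sample lay at less than the lowest COM sample, and the means differed 4.48-fold. The log2 fold change was -2.06 (SE 0.23, limma adjusted p = 0.00021). For Ly6c1 the COM+Met levels were 11.6, 14.4 and 24.0 FPKM, and the log2 fold change was -2.09 (SE 0.19, limma adjusted p = 5.19e-05). Both stayed called without COM-1, COM-2 and COM-3 (-1.53 and -1.81 for Ly6c2 and Ly6c1) and without COM-4, COM-5 and COM-6 (-2.60 and -2.38).

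Ly6i levels in COM+Met were 316, 367 and 572 FPKM, and the highest, from COM+Met-1, was still under the lowest COM value of 801 FPKM. The log2 fold change was -1.28 (SE 0.14, limma adjusted p = 0.000143), and it was -1.20 and -1.36 without either set of 3 COM samples. Ly6a levels in COM+Met were 99.8, 115 and 131 FPKM, all under the lowest COM value of 159 FPKM. Its log2 fold change of -1.16 (SE 0.26, limma adjusted p = 0.0114) depended on which COM samples were used. Without COM-1, COM-2 and COM-3 it was -1.77, and without COM-4, COM-5 and COM-6 it was -0.55, which is under 2-fold although the adjusted p was 0.000159 (limma). When all 18 samples shared 1 estimate of the spread, neither Ly6a (adjusted p = 0.135) nor Ly6i (adjusted p = 0.181) passed the limma test, while both Ly6C genes did.

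Ly6e had nearly the same level in all COM+Met samples, 1510, 1520 and 1571 FPKM, inside the COM range of 960 to 1627 FPKM. The log2 fold change of 0.32 (SE 0.15) did not pass the test (limma, adjusted p = 0.169), and the exact permutation test gave p = 0.0606. Against COM-1, COM-2 and COM-3 alone, Ly6e was higher in COM+Met by 0.62 on the log2 scale (limma, adjusted p = 1.55e-07), and against COM-4, COM-5 and COM-6 alone the value was 0.03 (adjusted p = 0.852).

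Against NC, all 5 genes were called higher in COM+Met, where 5.66% of the 10786 genes tested were called higher and 19.3% in either direction. In 4 of the 5, Ly6c1 being the exception, the groups did not overlap, as in 14.1% of all genes with COM+Met higher. The firmest of these was Ly6e, with means of 379 ± 125 FPKM in NC and 1527 ± 22.2 FPKM in COM+Met (SD, n = 6) and a log2 fold change of 2.09 (SE 0.20, limma adjusted p = 8.97e-07). Ly6i (2.83, SE 0.76, adjusted p = 0.00443) and Ly6a (2.22, SE 0.57, adjusted p = 0.00337) stayed called without NC-5 and NC-6, at 1.53 and 1.21. The 2 Ly6C genes did not. Ly6c2 went from 1.49 (SE 0.58, adjusted p = 0.0333) to 0.48 without NC-5 and NC-6, and Ly6c1 from 1.30 (SE 0.47, adjusted p = 0.023) to 0.53, both under 2-fold with adjusted p of 0.00447 and 0.0247. Leaving out 1 sample at a time gave Ly6c2 an adjusted p above 0.05 without NC-5 (0.0682), NC-6 (0.0573), COM+Met-1 (0.0506), COM+Met-3 (0.0508), COM+Met-4 (0.0569) or COM+Met-5 (0.056), and Ly6c1 was no longer called without NC-5 (0.97, under 2-fold) or COM+Met-4 (1.17, adjusted p = 0.051). In Ly6c1 the lowest COM+Met sample (11.6 FPKM) lay within the NC range, and 5 of 6 COM+Met samples lay above all NC samples. This comparison shares its samples with both of the others.

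**Figure D3:**
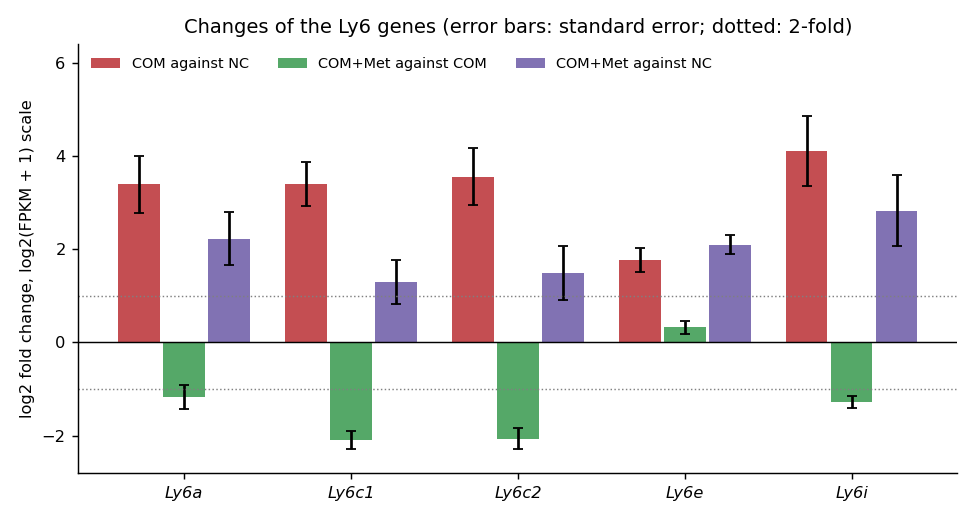
Log2 fold changes of the 5 Ly6 genes on the log2(FPKM + 1) scale in COM against NC, COM+Met against COM and COM+Met against NC (6 samples a group), with standard errors from limma and dotted lines at 2-fold. All 5 bars of COM against NC are above the upper line, those of Ly6a, Ly6c1, Ly6c2 and Ly6i in COM+Met against COM are under the lower line, and that of Ly6e in the same comparison is 0.32.

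The order of the genes by level differed between the groups. In NC it was Ly6e, Ly6c2, Ly6i, Ly6a and Ly6c1, and each of the 6 samples kept this order, although the ranges of neighbours overlapped because NC-5 and NC-6 were low throughout. In COM the means of Ly6c2, Ly6e and Ly6i lay close together, Ly6c2 was above Ly6e in 3 of 6 samples and Ly6e above Ly6i in 4 of 6, and their ranges overlapped. The order followed the split of COM, since Ly6c2 was 1.72 to 1.84 times Ly6e in COM-1, COM-2 and COM-3 and 0.459 to 0.77 times Ly6e among COM-4 to COM-6. No test of these levels against each other was made. The COM+Met order was Ly6e, Ly6i, Ly6c2, Ly6a and Ly6c1 in 6 of 6 samples, and only the ranges of Ly6i and Ly6c2 overlapped. As a share of the summed FPKM of the 5 genes, Ly6e made up 63.6% ± 17.1 in NC, 32.7% ± 8.94 in COM and 65.2% ± 2.61 in COM+Met (SD, n = 6). The share of Ly6c2 was 19.5% ± 8.09, 33.9% ± 11.9 and 12.6% ± 1.02 in the same groups, and that of Ly6i was 11.4% ± 7.06, 24.2% ± 0.869 and 16.6% ± 3.25. Without NC-5 and NC-6, the NC shares were 53.0% for Ly6e, 24.4% for Ly6c2 and 15.7% for Ly6i. Together the 5 genes held 0.159% of the summed FPKM of the table in NC (0.208% without NC-5 and NC-6), 0.914% in COM and 0.538% in COM+Met.

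Ratios between members within a sample were compared by exact permutation tests (two-sided) with Benjamini-Hochberg adjustment over 12 tests, 4 ratios in 3 comparisons. The tests, log2 differences and SD are of log2 ratios of (FPKM + 1), while the ranges and medians given are of plain FPKM ratios. The ratio of Ly6c2 to Ly6c1 passed the test in no comparison. It ran from 15.5 to 26.8 in NC, from 14.5 to 23.7 in COM and from 13.8 to 23.9 in COM+Met, with medians of 20.6, 18.4 and 20.6, and the groups overlapped throughout. The differences of its log2 value were at most 0.19 (adjusted p from 0.679 to 0.857, exact permutation), under the SD within NC of 0.41. These small values depended on the pseudocount, and with one of 5 FPKM, which weighs on the low Ly6c1, they were 0.78 for COM against NC and 0.59 for COM+Met against NC (adjusted p = 0.104 and 0.208, exact permutation). The pseudocount also enters the SD within NC. NC-5 had the highest FPKM ratio there (26.8), but its tested log2 ratio of 3.83 was below the NC mean of 4.01. The part of the reads that the near copies share in the ratio of Ly6c2 to Ly6c1 was not tested.

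The ratio of Ly6a to Ly6e ran from 0.0233 to 0.117 in NC, from 0.153 to 0.27 in COM and from 0.0658 to 0.0862 in COM+Met. The COM samples lay above all others. On the log2 scale the ratio was higher in COM than in NC by 1.62 and lower in COM+Met than in COM by 1.49 (adjusted p = 0.00866 for both, exact permutation), so that Ly6a and Ly6e changed unequally in both comparisons. Without NC-5 and NC-6 the difference between COM and NC was 0.96 (adjusted p = 0.0143, exact permutation). Between COM+Met and NC it differed by 0.13 (adjusted p = 0.813, exact permutation), and without NC-5 and NC-6 by -0.52 (adjusted p = 0.0143, exact permutation).

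The ratio of Ly6c2 to Ly6a ran from 2.94 to 5.17 in NC and from 2.1 to 2.81 in COM+Met, with no overlap and a difference of -0.73 on the log2 scale (adjusted p = 0.00866, exact permutation). In COM it spread from 1.79 to 11.3, with COM-1, COM-2 and COM-3 high and COM-4, COM-5 and COM-6 low, and differed from neither of the other groups beyond that spread (adjusted p = 0.857 against NC and 0.325 for COM+Met against COM, exact permutation). The ratio of Ly6i to Ly6a passed in no comparison (adjusted p from 0.265 to 0.813, exact permutation), and within COM it split the same way, from 2.12 to 5.97.

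**Figure D4:**
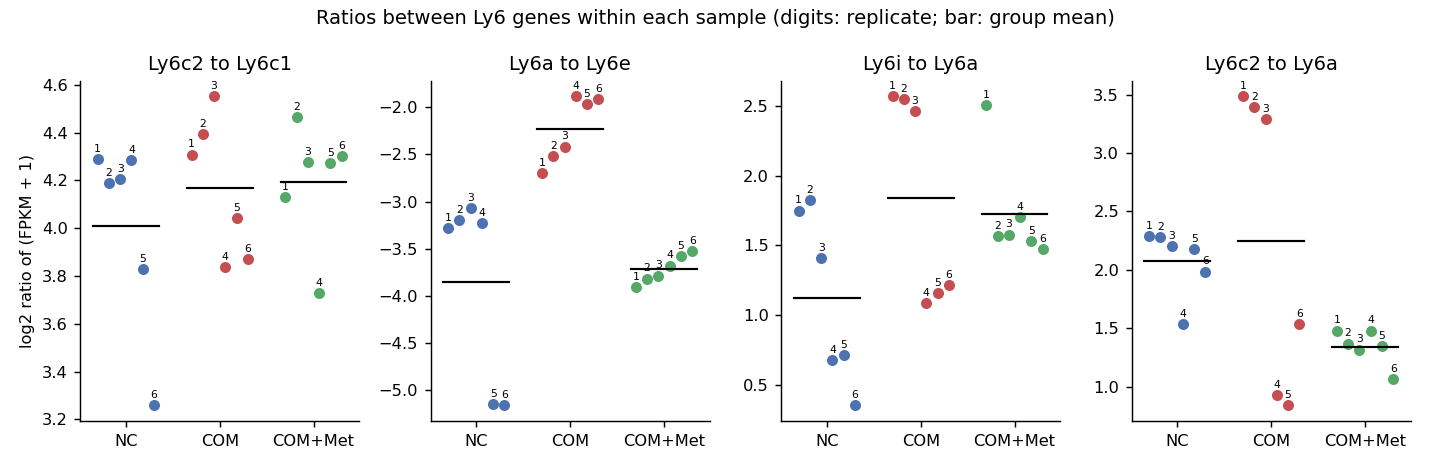
Log2 ratios of (FPKM + 1) between pairs of Ly6 genes in every sample, with replicate numbers as digits and the group mean as a bar, each panel on its own axis. The ratio of Ly6c2 to Ly6c1 overlaps between all groups, that of Ly6a to Ly6e is highest in the 6 COM samples, and those of Ly6i and Ly6c2 to Ly6a split COM into samples 1 to 3 and samples 4 to 6.

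The genes most like each member were found by Pearson correlation over 18 samples and 10751 genes. These points fall into 3 groups, so the values describe the shared pattern of group means and carry no test. The closest to Ly6c2 and Ly6c1 was the other copy (0.986), followed by Ttc39c (0.981 and 0.972). Next were Hp for Ly6c2 (0.977) and Tgfbi for Ly6c1 (0.968). Ly6e was closest to Usp18, Ms4a7 and Gbp2 (0.992 to 0.993), of which Usp18, an interferon-induced protease that removes ISG15, went from 6.5 FPKM in NC to 161 in COM and 190 in COM+Met. Ly6i was closest to Tarm1, Snx18 and Fpr2 (0.985 to 0.993), and Ly6a to an unnamed gene model, C1ra and Runx3 (0.972 to 0.976). With group means subtracted, only the spread within groups remained. Ly6a was then closest to Rasgef1b (0.979), Ly6c1 to Ly6c2 (0.96), Ly6c2 to Birc3 (0.99), Ly6e to Oas3 (0.983) and Ly6i to Pid1 (0.99). Ly6a and Ly6e were also among the closest to each other (0.973). The low NC samples and the split of COM enter these values.

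Apart from the 5 members and Plaur, the listed genes of the wider Ly6/uPAR family were under the level needed for a test. Of 45 genes listed, 41 were in the table, 20 of them were at 0 in every sample, and 6 reached the level needed for a test, the 5 members and Plaur. Plaur, which encodes the urokinase receptor uPAR, was highest in NC, where all 5 Ly6 genes were lowest by their means. Its levels ran from 168 to 285 FPKM in NC, with NC-5 and NC-6 lowest, from 23.4 to 79.6 FPKM in COM and from 29.2 to 44.5 FPKM in COM+Met. It was called lower in COM than in NC (log2 fold change -2.01, SE 0.27, limma adjusted p = 6.07e-05) and lower in COM+Met than in NC (-2.67, SE 0.15), and was not called between COM+Met and COM (-0.66).

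Genes for the synthesis and attachment of the GPI anchor seldom passed the limits for a call. Of 28 tested, 1 was called higher and 0 lower in COM against NC, with a median log2 fold change of -0.18 against -0.27 for all genes tested. Among all genes tested 5.99% were called higher and 17.7% in either direction. The gene called was Pgap2, which acts on GPI anchors in the Golgi, with means of 24.0 FPKM in NC and 76.7 FPKM in COM (log2 fold change 1.64). Between COM+Met and COM the limma test called 0 of the 28 genes (median 0.11), where 2.22% of all genes were called.

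Among other GPI-anchored surface proteins, 4 of 17 tested were called higher in COM than in NC and 1 lower, with a median log2 fold change of 0.06. Higher were Bst2 (tetherin, which holds budding viruses at the membrane, 3.92), Vnn3 (a vanin, 3.83), Cd14 (the co-receptor for lipopolysaccharide, 2.86) and Sema7a (a semaphorin, 2.45), and lower was Ulbp1 (a ligand of the receptor NKG2D, -1.76). Of all genes tested, 5.99% were called higher in COM than in NC and 17.7% in either direction. Between COM+Met and COM, 1 of 18 such proteins tested was called higher (Vnn3, 1.48) and 1 lower (Cd24a, -1.67), with a median of -0.07. Among all genes, 2.22% were called there.

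In the list of interferons, their receptors and signalling genes, 9 of 19 tested were higher by the limma test and 0 lower when COM was set against NC, with a median log2 fold change of 0.84. Among these were Irf7 (6.05), Usp18 (4.38) and Jak2 (2.29). Of all genes tested in that comparison, 5.99% were called higher and 17.7% in either direction. Between COM+Met and COM the limma test called 0 of 19 in either direction, with a median of 0.02. Since 2.22% of all genes were called there, a count of 0 in a list of this size says little. Of the interferons, Ifnb1 had a mean of 0.0407 FPKM in NC, 0.446 in COM and 0.426 in COM+Met, too low for a test, and Ifng did not exceed 0.0622 FPKM in any sample.

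**Figure D5:**
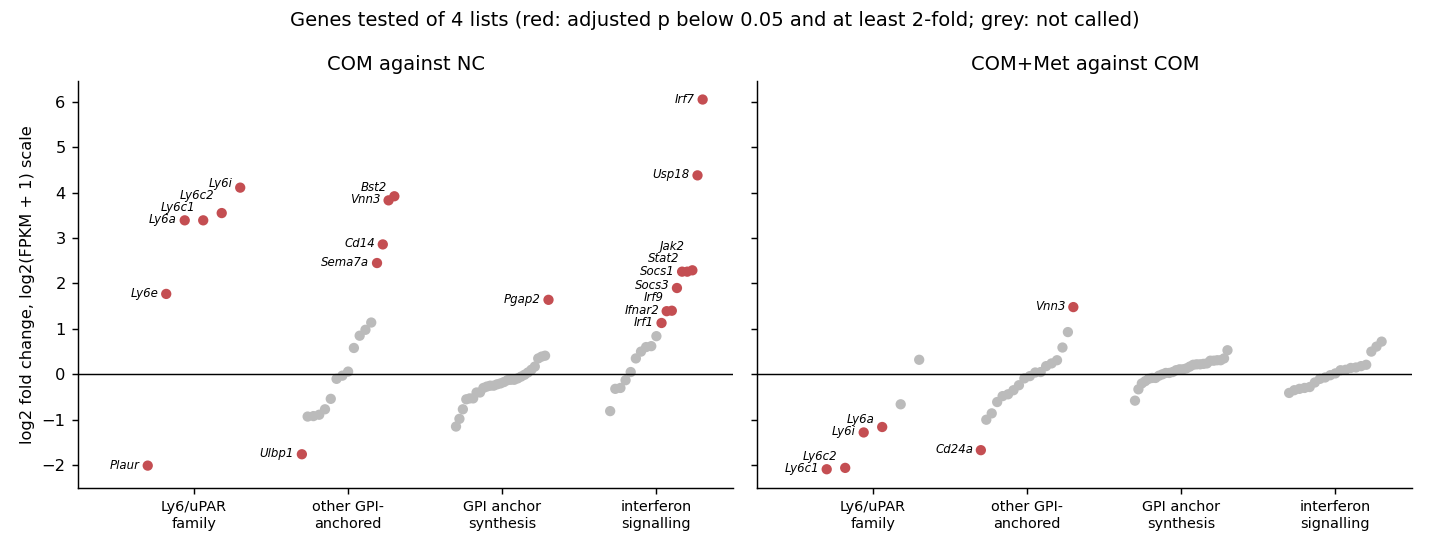
Log2 fold changes on the log2(FPKM + 1) scale of the genes tested in the Ly6/uPAR family, other GPI-anchored proteins, GPI anchor synthesis and interferon signalling, for COM against NC and for COM+Met against COM, in order of size within each list, with called genes in red and named. In the interferon list 9 genes are red in the first comparison and 0 in the second. Of all genes, 17.7% were called in the first and 2.22% in the second.

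Ly6 genes are also transcribed by other blood cells and by endothelium, so marker lists were measured beside them. In bulk RNA, a smaller number of cells of a type and less RNA in each cell cannot be told apart. The summed level of 14 monocyte-enriched genes, which exclude the members, ran from 1318 to 18380 FPKM in NC, from 1095 to 1621 FPKM in COM and from 633 to 864 FPKM in COM+Met, and none of them was at 0 in every sample. The wide range in NC came from NC-5 and NC-6, and the other 4 NC samples summed to 1318 to 1534 FPKM. In COM against NC, 3 of the 12 monocyte-enriched genes tested were called higher and 6 lower. Of all genes tested there, 5.99% were called higher and 17.7% in either direction. In COM+Met against COM, 0 of 10 tested were called higher and 5 lower, where 1.61% of all genes were called lower and 2.22% in either direction. The 2 most abundant of the list were Chil3 and Hp. Chil3, a chitinase-like protein, was at 836 to 1097 FPKM in NC-1 to NC-4 but at 18160 and 18220 FPKM in NC-6 and NC-5, the samples in which all 5 Ly6 genes were lowest, with means of 360 FPKM in COM and 264 FPKM in COM+Met. Hp (haptoglobin) had means of 136, 653 and 215 FPKM in NC, COM and COM+Met, the same order as Ly6c2. Among the NC samples Hp was also lowest in NC-5 and NC-6. Ms4a4c and Plac8 were called higher in COM than in NC too. Their means in NC, COM and COM+Met were 0.847, 272 and 205 FPKM for Ms4a4c and 1.89, 9.21 and 0.718 FPKM for Plac8. Called lower in COM than in NC were Ccr2, Spn, Vcan, Fn1, Nr4a1 and Chil3. Hp, Plac8, Spn, Vcan and Treml4 were called lower in COM+Met than in COM. In NC, COM and COM+Met the means were 8.24, 0.187 and 0.055 FPKM for Ccr2 and 56.4, 11.7 and 6.49 FPKM for Fn1.

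The 13 neutrophil genes summed to 550 to 1066 FPKM in NC, 1181 to 1859 FPKM in COM and 734 to 856 FPKM in COM+Met, led by Lcn2 and Mmp8. Lcn2 had means of 23.5, 1133 and 678 FPKM, Mmp8 336, 175 and 68.7 FPKM, and the calprotectin genes S100a8 254, 169 and 23.5 FPKM and S100a9 171, 8.43 and 1.30 FPKM in these groups. Ngp went from 30.9 to 1.60 and 0.161 FPKM, while Ly6g, Mpo and Retnlg stayed under 1 FPKM in every sample. In COM against NC 1 of 9 tested was called higher and 4 lower, and in COM+Met against COM 0 of 6 were called higher and 4 lower. The 14 macrophage genes summed to 11930 to 16310, 10600 to 14290 and 12450 to 17320 FPKM in NC, COM and COM+Met. Of these genes, 3 were called higher and 1 lower in COM against NC, and 3 higher and 0 lower in COM+Met against COM. Over all genes, 17.7% were called in COM against NC (5.99% higher). In COM+Met against COM 2.22% were called, with 63 of 10364 genes higher and 1.61% lower.

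Endothelial genes summed to at most 58.9 FPKM in any sample, and 8 of 12 stayed under 1 FPKM. Vwf made up most of the sum in NC and was lower in COM (39.2 and 9.66 FPKM), whereas Kdr, the second most abundant, was called higher in COM (from 0.615 to 5.15 FPKM). Their sums were lower in COM (12.3 to 19.0 FPKM) and COM+Met (13.7 to 18.5 FPKM) than in NC (31.5 to 58.9 FPKM). The summed level of lymphocyte genes, led by Cd4 and Klrb1c, did not exceed 3.97 FPKM, and that of plasmacytoid dendritic cell genes, led by Cox6a2 and Ccr9, did not exceed 4.66 FPKM. Haematopoietic progenitor genes, led by Flt3 and Kit and listed because Sca-1 marks such cells, summed to 2.41 to 4.76 FPKM in NC, 2.92 to 8.11 FPKM in COM and 1.85 to 3.63 FPKM in COM+Met. Flt3 was called higher in COM than in NC (log2 fold change 1.26, limma adjusted p = 0.00153) and Kit was not. The means of Flt3 were low, at 0.37, 2.49 and 0.896 FPKM in NC, COM and COM+Met. Tubular epithelial genes summed to 10.95 to 18.23 FPKM in NC, nearly all of it Cdh1, followed by Epcam, and to at most 1.37 FPKM in COM and 0.332 FPKM in COM+Met, with Umod, Aqp2, Krt18, Havcr1 and Kap at 0 in every sample. Fibroblast genes, led by Col1a2 and Col1a1, summed to 14.7 to 61.0, 4.61 to 36.8 and 2.38 to 7.33 FPKM in the same groups. The part of monocytes or of any of these other cell types in the Ly6 differences was not tested.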

How the data were processed

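Total RNA of BMDMs from 18 samples was sequenced from TruSeq libraries. The authors deposited FPKM values per gene with replicates kept apart. Bowtie 0.12.2 and the genome builds mm8 and mm9 are listed by the submitters' processing notes with no role stated, and the program that calculated FPKM is not given in the sources used here. Read depth is unknown (for genes under 0.5 FPKM, any single ratio between 2 samples, in bins of 0.5%, was shared by at most 0.816% of genes), so no counting interval could be given. Table sums ran from 380731 to 449186. FPKM is relative to the sample total, so that a gene falls when abundant genes rise.

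Groups and replicate numbers came from the sample labels. Genes averaging at least 1 FPKM in the 12 samples of a comparison were analysed by limma 3.58.1 (trend) in R 4.3.3 on log2(FPKM + 1), and single genes and ratios also by exact permutation in Python 3.11.15. The procedure was tested on simulated data. Gene lists were written by hand, and 1 gene of the interferon list is not reported here. The text names all 5 members and the called genes of each pathway list (at most the 4 largest changes in a comparison). It also names the 2 most abundant genes of each marker list and the 3 genes closest to each member over 18 samples. With group means subtracted, it names the closest gene, and Ly6a and Ly6e for each other. Neighbouring genes, Ifnb1, Ifng, Ifngr1, S100a8, S100a9 and Ngp were named after their values were seen. So were marker genes at or near 0. The same holds, apart from Chil3 and Hp, for the monocyte-enriched genes called in COM against NC or COM+Met against COM. The members and lists were chosen with earlier results of these data known. Alternatives were pseudocounts of 0.1 and 5, no filter, a filter of 5 FPKM, TPM, size factors, quantile normalisation, the replicate block, all 18 samples, sample weights and each sample left out. Leaving out NC-5 and NC-6, or 3 COM samples, was added after seeing the data.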

Additional observations from a re-analysis of the deposited data

Results flagged for a closer look

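Each of 27 sets of 6 values (5 genes and 4 ratios in 3 groups) was examined for a sample whose gap to the nearest other value was large for the range of its group, by a criterion that chance meets in about 1 of 20 sets. It was met in 4 sets, all in COM+Met. Ly6c1 in COM+Met-4 was 24.0 FPKM, where the other 5 samples lay at 11.6 to 15.8 FPKM. Ly6e in COM+Met-3 was 1571 FPKM, where the others lay at 1510 to 1528 FPKM, a gap that is small beside the level. Ly6i in COM+Met-1 was 572 FPKM, where the others lay at 316 to 386 FPKM. In the same sample the log2 ratio of Ly6i to Ly6a was 2.51, above the others of its group. No explanation of these values was tested.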

How the results depend on the processing

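In all 360 refits of the 5 genes the direction was that reported, and in 347 the side of the adjusted p of 0.05 was too, 125 of 125 for COM against NC. The called genes of COM against NC numbered 980 with a pseudocount of 5, against 1926, and those of COM+Met against NC 1117, against 2078. Those of COM+Met against COM numbered 370 and 90 with pseudocounts of 0.1 and 5, 719 with sample weights and, without COM-4 to COM-6, 771, against 230. Size factors and quantile normalisation gave 840 and 792 genes higher with 987 and 1018 lower in COM+Met against NC (611 and 1467 as deposited), and quantile normalisation 801 and 894 in COM against NC. With all 18 samples in the fit, Ly6a (-1.16) and Ly6i (-1.28) in COM+Met against COM had adjusted p of 0.135 and 0.181. Ly6e in that comparison was 0.60 with sample weights (adjusted p = 7.61e-07) and 0.62 without COM-4, COM-5 and COM-6, and Ly6a was -0.59 with sample weights, under 2-fold. For COM+Met against NC, Ly6c2 was 1.49 with no filter (adjusted p = 0.0564) and 0.58 with sample weights (adjusted p = 0.051), and ran from 1.05 to 1.73 with 1 sample left out, while Ly6c1 ran from 0.97 to 1.51, was 0.60 with sample weights and 0.83 with a pseudocount of 5. The cause of these shifts was not tested.

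Replicate numbers did not pair the samples: correlations of the deviations of same-numbered samples ran from -0.222 to 0.0569, and 0 of 18 were highest for the own number. With the number as a block the called genes numbered 1920, 202 and 2080 in COM against NC, COM+Met against COM and COM+Met against NC, and no call of a Ly6 gene changed. In the paired sign-flip test of the ratios, the 3 that had passed (1.62 and -1.49 for Ly6a to Ly6e, -0.73 for Ly6c2 to Ly6a) had an adjusted p of 0.0938, in a test whose smallest p is limited by the 6 pairs.

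With a pseudocount of 5, Ly6c2 to Ly6c1 was 0.78 in COM against NC and 0.59 in COM+Met against NC without passing. Small ratio differences that had not passed changed sign. Ly6c2 to Ly6c1 became -0.14 (pseudocount 0.1), -0.0122 (TPM), -0.0752 (without NC-5 and NC-6) and -0.0922 (without COM-1, COM-2 and COM-3) in COM against NC, -0.0454 (pseudocount 0.1) and -0.0472 (without NC-5 and NC-6) in COM+Met against NC, and -0.20 (pseudocount 5), -0.0146 (quantile normalisation) and -0.22 (without COM-4 to COM-6) in COM+Met against COM, where leaving out 1 sample gave -0.038 to 0.12. Ly6a to Ly6e in COM+Met against NC became -0.12 with a pseudocount of 5 and -0.52 without NC-5 and NC-6, and ran from -0.13 to 0.29 with 1 sample left out. The same ratio in COM against NC was 0.96 without NC-5 and NC-6, 1.93 without COM-1, COM-2 and COM-3 (adjusted p = 0.114, exact permutation) and 1.30 without COM-4, COM-5 and COM-6 (adjusted p = 0.122, exact permutation). Without COM-1, COM-2 and COM-3, Ly6c2 to Ly6a was -0.98 in COM against NC and 0.24 in COM+Met against COM, and Ly6i to Ly6a was 0.57 in the latter. Without COM-4, COM-5 and COM-6, the values were 1.31 and -2.04 for Ly6c2 to Ly6a and 1.41 and -0.80 for Ly6i to Ly6a, and these 4 passed (adjusted p from 0.0357 to 0.0476, exact permutation). With 1 sample left out, Ly6c2 to Ly6a in COM against NC ran from -0.0821 to 0.45 and Ly6i to Ly6a in COM+Met against COM from -0.27 to 0.0316.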

Other observations

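Other GPI-anchored surface proteins differed in both directions between COM+Met and NC. Of 17 tested, 4 were called higher and 4 lower, where 5.66% of all genes were called higher and 19.3% in either direction. Among the 17, the largest changes were those of Vnn3 (log2 fold change 5.31), Bst2 (4.84), Cd14 (2.82) and Cd24a (-2.56). Bst2, like Ly6e, was highest in COM+Met by its mean only, with means of 45.2 FPKM in NC, 813 in COM and 1258 in COM+Met. Neither gene was called between COM+Met and COM (for Bst2 0.93, limma adjusted p = 0.118). The COM+Met values of Bst2 (1170 to 1440 FPKM) lay inside its COM range of 299 to 1670 FPKM. In the GPI anchor synthesis list, Pgap2 was called higher (1.49) and Dpm1, a subunit of the enzyme that makes the mannose donor, lower (-1.35). The value of Dpm1 was less firm (SE 0.55, limma adjusted p = 0.0402). Its groups overlapped, at 3.8 to 16.1 FPKM in NC and 0.592 to 7.85 FPKM in COM+Met. In the interferon list 9 of 19 genes were called higher in COM+Met than in NC and 1 lower, Ifngr1 (-1.09), a receptor chain for interferon gamma.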
